A study of Mus musculus with 20 samples.

Results

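The 10 genes described here are transcription factors and repressors of the circadian clock in mouse heart: Arntl, Clock, Npas2, Per1, Per2, Per3, Nr1d1, Nr1d2, Dbp and Tef. They were selected on their CPM (counts scaled to library size) in the 4 groups, by how those values parted injury from the difference of the shams, and were taken by symbol from a table of 63318 genes, and all 10 were among the 19741 genes that passed the filter on low counts. Short-read libraries of heart RNA were made for 4 groups of 4 libraries each. The MI libraries came from hearts with a myocardial infarction, sampled 72 h after surgery from the infarct core and the tissue around it, and MISham is the sham operation sampled in the same regions. The IR libraries came from the infarct core of hearts that underwent 40 min of "LCA", which the labels leave unexpanded, and then 72 h of reperfusion, and IRSham is its sham operation sampled in the same region. The labels give no strain, age, time of day of sampling or number of animals, nor do they say whether each library is a separate animal, so the spread between libraries may be technical. The arms differ both in the operation and in the tissue region taken, and these cannot be told apart.

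The mammalian clock is a feedback loop of transcription. BMAL1, the product of Arntl, pairs with CLOCK or NPAS2, binds E-box sequences and activates the period genes, the REV-ERB receptor genes and the PAR bZIP genes, while PER proteins repress that activity and REV-ERB proteins repress Arntl. In a running clock Arntl and its targets therefore peak at opposite times of day. Cardiomyocytes hold such a clock, and it times genes of metabolism and electrical activity.

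Promoter sequence was read for the members from RefSeq on GRCm38.p6, in windows from 250 bases before to 50 bases after each start. The files use GRCm39, so these windows locate sequence, not reads. A window was found for 9 of the 10 members, 14 windows in all. The letters searched on both strands were the E-box CACGTG, the binding sequence of BMAL1 with its partners, 2 D-box spellings bound by DBP and TEF, TTATGTAA and TTATGCAA, and AGGTCA, the core of the element bound by REV-ERB and ROR receptors. The 4 promoter sequences that follow are each shown with the letters of the motifs named beside it in capitals. For Per3 (chr4:151044676-151044915, minus strand) and Per1 (chr11:69098699-69098938, plus strand) the capitals are D-boxes and, in Per1, also an E-box. For the second listed start of Tef (chr15:81811164-81811403, plus strand) they are an E-box, and for Arntl (chr7:113207524-113207553, plus strand) AGGTCA.
Per3: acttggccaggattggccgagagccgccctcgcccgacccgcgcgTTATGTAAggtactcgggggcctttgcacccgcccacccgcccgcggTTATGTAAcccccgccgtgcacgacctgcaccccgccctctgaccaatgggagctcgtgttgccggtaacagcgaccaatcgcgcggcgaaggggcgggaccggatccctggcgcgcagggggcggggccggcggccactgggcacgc
Per1: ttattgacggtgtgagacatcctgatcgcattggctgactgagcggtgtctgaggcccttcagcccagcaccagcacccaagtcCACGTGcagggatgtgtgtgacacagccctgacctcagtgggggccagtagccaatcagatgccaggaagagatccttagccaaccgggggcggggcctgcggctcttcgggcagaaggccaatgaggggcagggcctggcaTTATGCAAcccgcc
Tef: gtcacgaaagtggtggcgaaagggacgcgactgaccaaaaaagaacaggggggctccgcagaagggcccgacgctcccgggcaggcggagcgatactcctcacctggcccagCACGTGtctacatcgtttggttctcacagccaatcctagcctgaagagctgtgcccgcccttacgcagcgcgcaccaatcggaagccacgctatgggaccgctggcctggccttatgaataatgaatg
Arntl: ttagggaaggcagaaagtAGGTCAgggacg
The 2 D-boxes of Per3 begin at positions -205 and -158 relative to its start, and TTATGTAA occurred in 0.938% of the 32851 windows in the table. In Per1 the E-box begins at position -166 and the D-box TTATGCAA at -24. TTATGCAA occurred in 0.743% of windows and CACGTG in 7.15%. Tef held an E-box in both of its windows, at positions -127 and -138 relative to the 2 starts. Of the 9 members with a window, CACGTG was found for 2, Per1 and Tef, and a D-box for 2, Per3 and Per1. The windows of Per3, Nr1d1, Nr1d2 and Dbp held no CACGTG. The match of Arntl lies after its start, at position 31. AGGTCA, found in 16.3% of windows, was present in those of Arntl, Clock, Per1 and Nr1d2. The Per1 match, at position -137, lies on the other strand and is left in lower case above. A match is a description of letters and not a measured binding site.

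Depth was 57.2 to 63.1 M counts in the MI libraries and 24.3 to 31.8 M in the other 12, and the members had between 170 and 7146 counts in any library. The tissue carried its defining markers: summed over 10 cardiomyocyte genes, levels were 89182 to 104448 CPM in MISham and 94015 to 99618 in IRSham, against 16589 to 29642 in MI and 17891 to 35612 in IR. CPM is given on the TMM scale, which corrects library sizes for differences in composition. Among the MISham libraries, replicates 1 and 3 had higher summed macrophage markers (1601 and 1216 CPM) than replicates 2 and 4 (695 and 771). Among the IR libraries, replicates 1 and 3 held more cardiomyocyte signal (35612 and 32152 CPM) than replicates 2 and 4 (17891 and 19701). In bulk tissue fewer cells of a type and less RNA per cell cannot be told apart.

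Per length, in TPM (transcript abundance scaled to a fixed sum per library) summed over each gene's transcripts and averaged over the 16 libraries, Tef was the most abundant member at 53.3. It was followed by Nr1d2 (17.8), Dbp (15.7), Nr1d1 (13.6), Per1 (11.1), Arntl (9.21), Clock (7.13), Per3 (4.42), Npas2 (3.87) and Per2 (2.25). This order is over all groups together and does not hold in each. In MI the mean of Dbp was 5.30 TPM, below Arntl (10.3), Clock (8.96) and Per1 (12.8), while in IRSham it was 37.1, second to Tef at 84.8.

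The 2 sham groups, neither of which was infarcted, differed in most clock genes and in opposite directions within the loop. Arntl and Clock were higher in MISham than in IRSham, while Dbp, Per3, Per2, Nr1d2 and Tef were lower. After injury Dbp, Tef, Nr1d1, Nr1d2, Per3 and Npas2 were called lower than in their own sham in both arms, Npas2 close to the threshold after IR. Per2 was called lower after IR and not called after MI, and Per1 was called in neither arm. Arntl was lower after MI but higher after IR, and Clock was called higher after IR only. The members were chosen by these same contrasts, so their fold changes, from edgeR's quasi-likelihood fit over all genes, are given with SE as a description and without p-values.

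**Figure D1:**
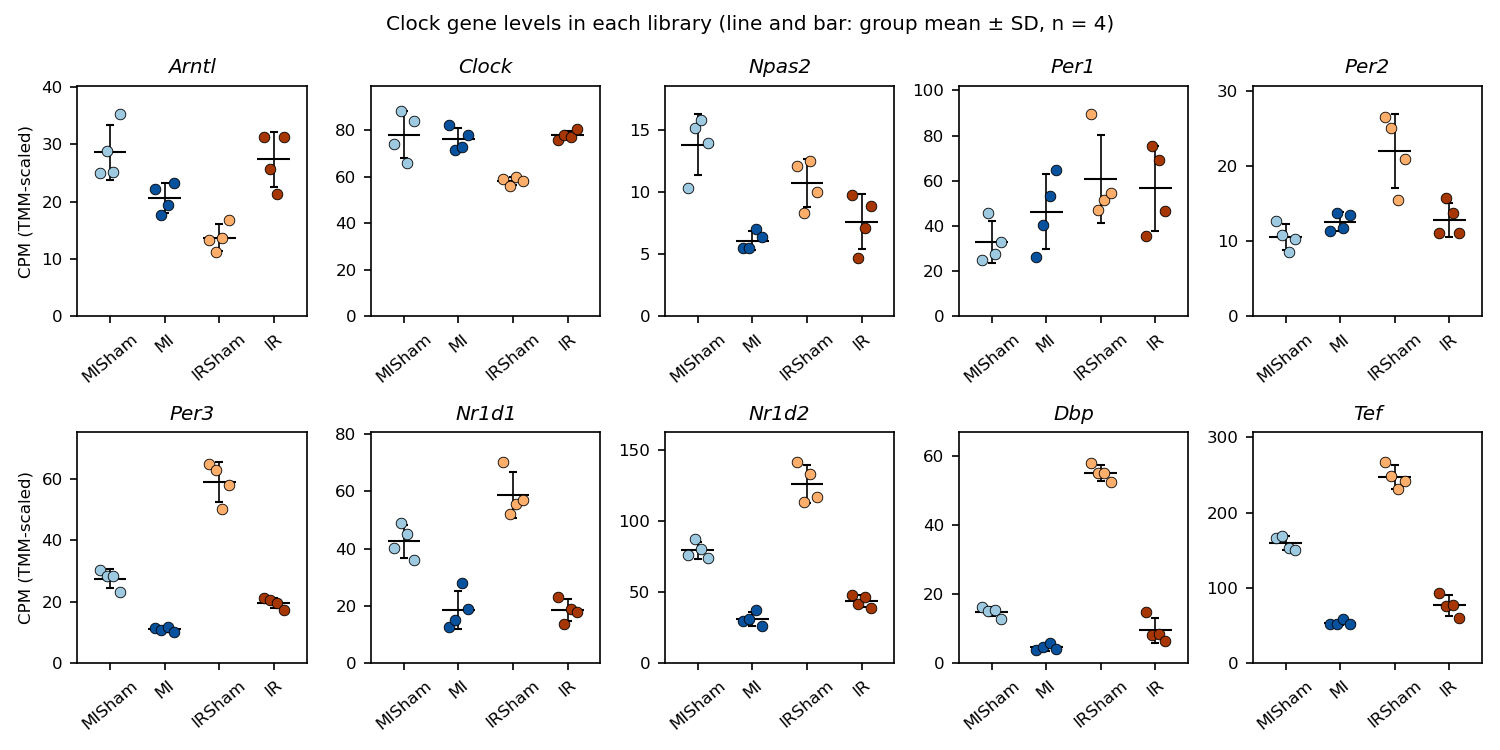
Level of each clock gene in every library (y axis: CPM on the TMM scale, from 0; x axis: group). Points are libraries, and the line and bar are the group mean ± SD of n = 4. Dbp sits at 52.6 to 58.1 CPM in IRSham and at 12.9 to 16.2 in MISham, and Arntl shows the opposite order of the shams, at 11.2 to 16.8 and 25.0 to 35.3.

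Arntl encodes BMAL1, the partner without which the loop does not run. Its levels were 25.0, 28.9, 25.2 and 35.3 CPM in the 4 MISham libraries and 13.3, 11.2, 13.7 and 16.8 in IRSham. In the injured groups they were 22.3, 17.6, 19.4 and 23.3 CPM in MI and 31.2, 25.8, 21.3 and 31.2 in IR. Every MISham library was above every IRSham library, every MI library below every MISham library, and every IR library above every IRSham library, while MI and IR overlapped. The log2 fold change was 1.06 ± 0.15 (SE) between the shams, -0.47 ± 0.15 after MI and 0.99 ± 0.15 after IR. The MI value depends on scaling, at -0.16 with library size alone and 0.28 in summed TPM, whose median over all genes shifted by 0.70.

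Clock, the partner of BMAL1 in the activator pair, spanned a narrower range. It was at 73.9, 88.3, 65.9 and 83.7 CPM in MISham and at 58.8, 56.0, 59.8 and 58.2 in IRSham. The injured libraries had 82.2, 71.3, 72.7 and 77.7 CPM in MI and 75.9, 77.9, 77.1 and 80.5 in IR. IRSham was the low group, below all 12 other libraries, and the other 3 groups overlapped. Its log2 fold change was 0.42 ± 0.08 between the shams, 0.42 ± 0.08 after IR and -0.04 ± 0.08 after MI, a value that turned to 0.28 with library size alone.

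Npas2, which can replace CLOCK as the partner of BMAL1, did not follow Arntl. Its levels were 10.3, 15.2, 15.8 and 14.0 CPM in MISham and 12.1, 8.32, 12.5 and 10.1 in IRSham. They were 5.49, 5.51, 7.01 and 6.43 CPM in MI and 9.80, 4.74, 7.12 and 8.88 in IR. The shams overlapped, MI lay wholly below MISham, and IR overlapped IRSham. The log2 fold change was 0.36 ± 0.20 between the shams, -1.18 ± 0.20 after MI and -0.50 ± 0.20 after IR. The IR call is close to the threshold: it was lost with library size alone (-0.21), with only the IR and IRSham libraries in the fit (-0.50), and without MISham 4 (-0.50), MI 4 (-0.50), IRSham 1 (-0.44), IRSham 3 (-0.42), IRSham 4 (-0.53), IR 2 (-0.32) or IR 3 (-0.47).

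The 3 period genes, which encode the repressors, differed from each other in spread and in response. Per3, the member of the family with the steadiest levels here, was at 30.2, 28.4, 28.3 and 23.0 CPM in MISham and at 65.0, 62.9, 50.4 and 58.1 in IRSham. It was at 11.4, 10.7, 11.7 and 9.95 CPM in MI and at 21.2, 20.4, 19.5 and 17.3 in IR. The 4 groups did not overlap at any point, in the order IRSham, MISham, IR, MI. Its log2 fold change was -1.10 ± 0.10 between the shams, -1.33 ± 0.10 after MI and -1.59 ± 0.10 after IR.

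Per2 was low in 3 of the 4 groups. MISham had 12.6, 10.8, 8.50 and 10.3 CPM and IRSham 26.5, 25.1, 15.5 and 21.0. MI had 11.3, 13.8, 11.8 and 13.5 CPM and IR 11.0, 15.7, 13.7 and 11.1. The shams did not overlap, MI overlapped MISham, and IR reached into the IRSham range with 1 library. The log2 fold change was -1.06 ± 0.17 between the shams, 0.26 ± 0.17 after MI and -0.77 ± 0.17 after IR. The MI value was called with library size alone, at 0.57.

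Per1, which also responds to stress hormones, varied widely within every group. Its levels were 24.9, 45.9, 27.7 and 33.1 CPM in MISham and 89.4, 47.1, 51.6 and 54.5 in IRSham. In the injured groups they were 26.2, 40.6, 53.5 and 64.7 CPM in MI and 35.6, 75.6, 69.3 and 46.4 in IR. Its coefficient of variation within groups was 28.2% to 35.9%, the highest of the members in both shams, while Nr1d1 in MI (36.2%) and Dbp in IR (38.4%) varied more. All groups overlapped apart from the shams, whose ranges were parted by the gap from 45.9 to 47.1. The log2 fold changes, -0.88 ± 0.32 between the shams, 0.49 ± 0.32 after MI and -0.10 ± 0.32 after IR, were not called. With library size alone the MI value was 0.80 and was called.

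Nr1d1 and Nr1d2 encode REV-ERB alpha and beta, nuclear receptors that repress Arntl. Nr1d1 was at 40.3, 49.1, 45.0 and 35.9 CPM in MISham and at 70.4, 52.2, 55.6 and 57.0 in IRSham. It was at 12.5, 14.9, 27.8 and 18.8 CPM in MI and at 23.2, 13.7, 18.9 and 17.8 in IR. Every sham library was above every injured library, the shams did not overlap, and the injured groups did. The log2 fold change was -0.46 ± 0.21 between the shams, which was not called, -1.20 ± 0.21 after MI and -1.68 ± 0.22 after IR.

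Nr1d2 was also highest in IRSham, then in MISham, but MI lay below IR. It was at 75.8, 87.6, 80.1 and 74.3 CPM in MISham and at 142, 113, 133 and 117 in IRSham. In MI it was at 29.5, 30.9, 37.3 and 26.2 CPM and in IR at 47.7, 41.3, 46.3 and 39.0. No 2 groups overlapped. The log2 fold change was -0.67 ± 0.10 between the shams, -1.36 ± 0.10 after MI and -1.53 ± 0.10 after IR.

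Dbp and Tef encode PAR bZIP factors, which bind D-boxes and carry clock time to other genes. Dbp had the largest sham difference of the 10: 16.2, 15.1, 15.4 and 12.9 CPM in MISham against 58.1, 55.0, 55.1 and 52.6 in IRSham. In MI it was at 3.64, 4.51, 5.78 and 3.99 CPM and in IR at 14.7, 8.06, 8.45 and 6.49. IR replicate 1 reached the range of MISham, and all other pairs of groups were apart. The log2 fold change was -1.89 ± 0.20 between the shams, a 3.70-fold lower level in MISham, and -1.74 ± 0.20 after MI and -2.55 ± 0.20 after IR.

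Tef, whose E-box is printed above, was at 166, 168, 153 and 149.5 CPM in MISham and at 268, 249, 231 and 242 in IRSham. It was at 51.5, 51.3, 57.8 and 52.4 CPM in MI and at 93.4, 75.6, 76.7 and 60.3 in IR. The 4 groups did not overlap and kept the order of Per3 and Nr1d2. Its log2 fold change was -0.63 ± 0.10 between the shams, -1.58 ± 0.10 after MI and -1.69 ± 0.10 after IR.

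**Figure D2:**
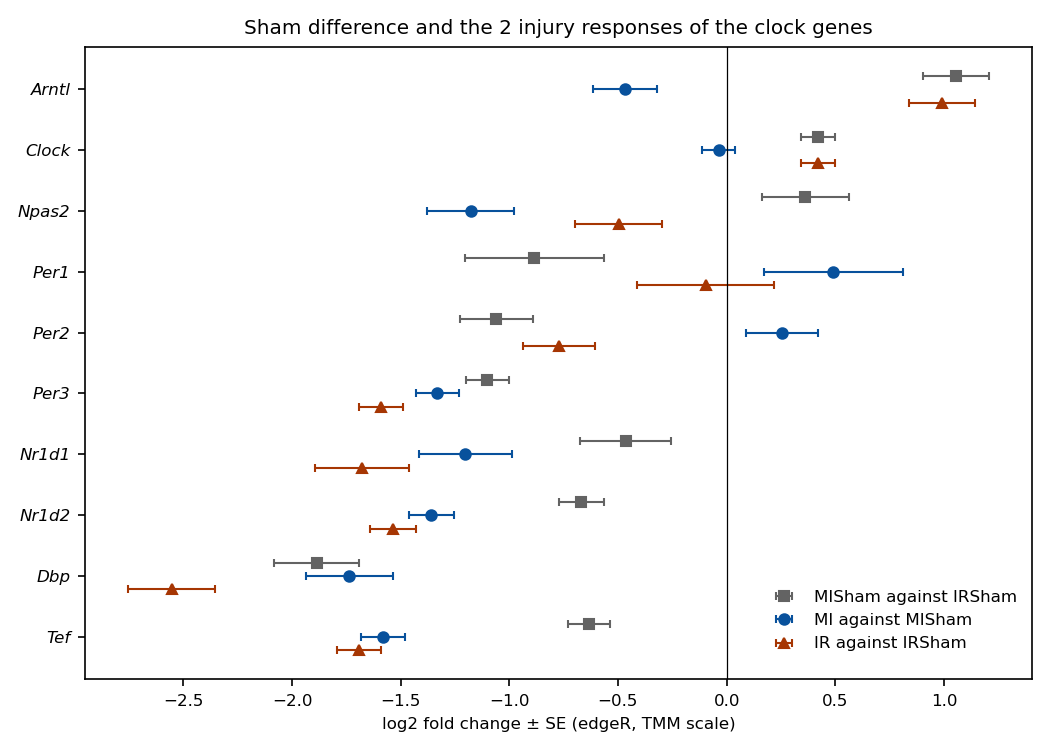
The sham difference (grey squares) and the MI (blue circles) and IR (red triangles) responses of the 10 genes, as log2 fold change ± SE on the TMM scale. Arntl lies at 1.06 between the shams, -0.47 after MI and 0.99 after IR, and Dbp at -1.89, -1.74 and -2.55.

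In counts, 7 of the 10 members were called between the shams at an adjusted p under 0.05, 2 higher and 5 lower in MISham, where 3.20% of all tested genes were called, 2.34% higher and 0.866% lower. After MI 7 were called, all lower, where 64.9% of genes were called and 30.2% were called lower. After IR 9 were called, 2 higher and 7 lower, where 57.7% of genes were called, 29.5% higher and 28.2% lower. CPM ranges did not overlap between the shams for 9 members, where this held for 8.84% of all genes. Of the 9, 2 were higher in MISham (4.66% of all genes) and 7 lower (4.19%). After MI ranges did not overlap for 7 members, all lower, beside 62.8% of all genes in either direction and 28.6% lower. After IR they did not overlap for 7 members (51.4% of all genes), 2 higher (26.1%) and 5 lower (25.4%). The members were picked for these contrasts, so nothing is read from the counts. The median log2 fold change of the 10 was -0.65 between the shams, -1.19 after MI and -1.15 after IR, beside medians over all tested genes of -0.04, 0.08 and 0.03. The MISham libraries enter both the sham comparison and the MI response, and the IRSham libraries both the sham comparison and the IR response, so these columns share samples.

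Cell type markers moved with the injury comparisons and less with the sham comparison. All 10 cardiomyocyte markers were called lower after MI and after IR. Between the shams none of the 10 was called by edgeR (0 at an unadjusted p under 0.05, 0 by DESeq2), and their median log2 fold change was 0.10. Summed macrophage markers were 2909.7 to 4071 CPM in MI and 3282 to 5742 in IR, against 695 to 1601 in MISham and 1239.7 to 1947 in IRSham. Between the shams 0 of 12 macrophage markers were called by edgeR (7 at an unadjusted p under 0.05, 0 by DESeq2). The median log2 fold change of the macrophage markers was -0.61, lower in MISham. Of the smooth muscle markers 2, Acta2 and Myh11, were called lower in MISham. Fibroblast markers summed to 2306 to 8354 CPM in MISham and 5564 to 8210.0 in IRSham. By edgeR 0 of 8 were called (1 at an unadjusted p under 0.05, 0 by DESeq2), with a median log2 fold change of -0.33. The part of cell mixture in the injury responses of the clock genes was not tested. Without MISham replicates 1 and 3 the same number of members, 7, was called between the shams. In that fit 1674 of 21163 genes were called, beside 632 of 19741 with all libraries. MISham replicates 2 and 4, which were left, had the lower macrophage sums, 695 and 771 CPM, further from IRSham. This fit therefore does not remove the marker difference, and its part in the sham difference was not tested.

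The injured groups were then set beside each other, to see whether the difference between the arms was also present after injury. Dbp, Per3, Tef and Nr1d2 were lower in MI than in IR, with log2 fold changes of -1.07 ± 0.20, -0.84 ± 0.10, -0.52 ± 0.10 and -0.49 ± 0.10, the same direction as between their shams. These 4 were the members called, beside 6.97% of all genes in either direction and 2.20% lower in MI. They were also the 4 whose CPM ranges did not overlap, beside 14.4% of all genes and 4.30% lower. Cell type markers also differed between MI and IR: edgeR called 4 of 8 endothelial markers higher in MI (Cdh5, Egfl7, Emcn and Pecam1) and 2 of 8 fibroblast markers, Dcn and Lum, lower. Summed endothelial markers were 1580.4 to 1681 CPM in MI and 1073 to 1529 in IR, and summed fibroblast markers 18941 to 23387.5 and 23452 to 27953. Of 6 neutrophil markers tested edgeR called 0 (4 at an unadjusted p under 0.05, 1 by DESeq2), with a median log2 fold change of 1.43. Summed over the 8 listed, neutrophil markers were 182 to 422 CPM in MI and 92.9 to 177 in IR. The part of these cell type markers in the difference was not tested. Without IR replicates 1 and 3 Dbp was at -0.71, and Nr1d2 was no longer called, at -0.38. The other 6 were not called: Nr1d1 was at 0.01 ± 0.21, Per2 at -0.03 ± 0.16, Clock at -0.03 ± 0.08, Per1 at -0.30 ± 0.31, Npas2 at -0.32 ± 0.20 and Arntl at -0.41 ± 0.15. For Arntl, Clock, Npas2 and Nr1d1 the sign was opposite to that between the shams, with Clock and Nr1d1 within 1 SE of 0. Arntl was called here without IR replicate 3, at -0.51.

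**Figure D3:**
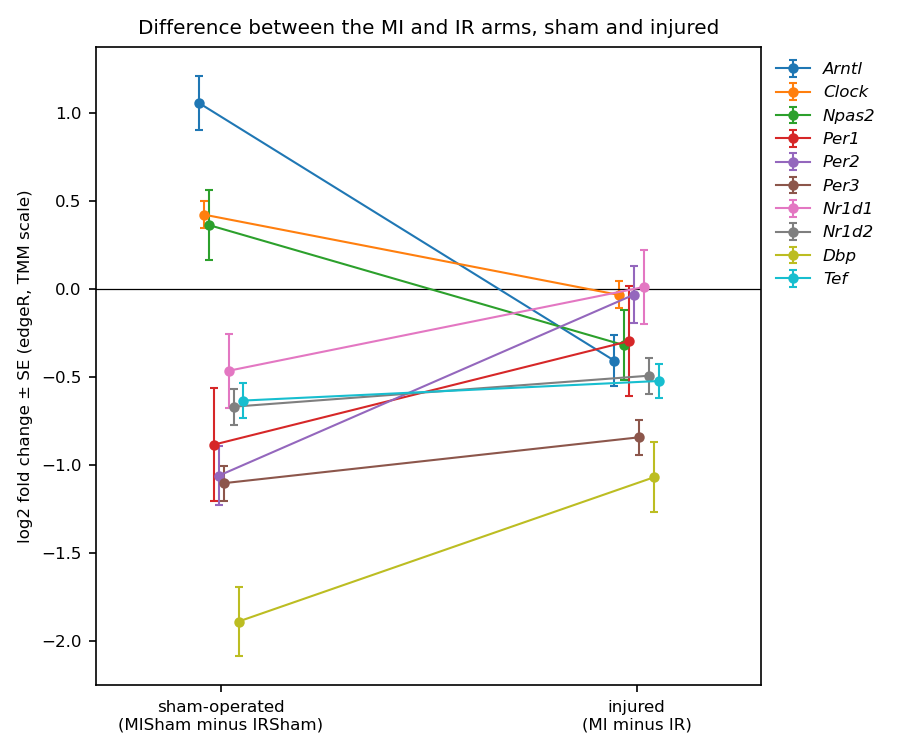
Difference between the MI and IR arms in sham tissue (left, MISham minus IRSham) and in injured tissue (right, MI minus IR), as log2 fold change ± SE on the TMM scale, with 1 line per gene. Dbp, Per3, Nr1d2, Tef, Per1 and Per2 stay below 0 on both sides, with Per2 going from -1.06 to -0.03, while Arntl goes from 1.06 to -0.41.

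The difference of the MI and IR responses equals the difference between MI and IR less that between the shams. A sham difference that is absent after injury therefore enters this value in full. For every member the sham difference given above was larger in size than the difference between MI and IR, by little for Npas2. The difference of responses for Arntl was -1.46 ± 0.21 on the log2 scale. Arntl was the 1 member called, where 38 genes or 0.192% of all tested genes were called, and 0.0760% in this direction. Per2 had 1.03 ± 0.23, Dbp 0.82 ± 0.27, Npas2 -0.68 ± 0.28, Per1 0.59 ± 0.45, Nr1d1 0.48 ± 0.30 and Clock -0.46 ± 0.11, none called. Per3 at 0.26 ± 0.14, Nr1d2 at 0.18 ± 0.15 and Tef at 0.11 ± 0.14 had the smallest differences. The count is sensitive to single libraries. Per2 was called without IRSham replicate 3 (1.17) or IR replicate 3 (1.06), Clock without MISham replicate 3 (-0.53), and Dbp without IR replicate 1 (1.07). Without MISham replicates 1 and 3 Clock (-0.59) and Per2 (1.04) were called beside Arntl, and without IR replicates 1 and 3 Dbp (1.15).

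Summed TPM, from a separate quantification of transcripts, was used to check these values. TPM is scaled to a fixed sum, and the median gene of the 14323 tested shifted by 0.70 after MI and 0.57 after IR on the log2(TPM + 1) scale, but by -0.10 between the shams. Between the shams the direction of all 10 members was that of the counts. Dbp was at 11.8, 10.6, 10.0 and 7.44 TPM in MISham and at 38.7, 35.7, 37.2 and 36.9 in IRSham, a difference of -1.81 ± 0.17. Arntl was at 7.37, 8.53, 7.89 and 9.63 TPM in MISham and at 4.49, 3.70, 4.57 and 5.02 in IRSham, a difference of 0.78 ± 0.13. Neither gene overlapped between the shams in TPM. By limma 4 members were called between the shams, Arntl higher and Per3, Nr1d2 and Dbp lower in MISham, where 0.140% of genes were called, 0.0419% higher and 0.0977% lower.

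Some of these TPM calls changed when a single library was left out. The sham call of Arntl was lost without MISham replicate 2 (0.77) or 4 (0.72), or without IRSham replicate 1 (0.79), 2 (0.71), 3 (0.79) or 4 (0.83). That of Nr1d2 was lost without MISham replicate 4 (-0.71) or IRSham replicate 1 (-0.72), 3 (-0.76) or 4 (-0.78), and Tef was called without IR replicate 1 (-0.72). The values moved little while the calls changed.

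In TPM as deposited, 9 members were called after MI (79.0% of all genes), 3 higher (66.3%) and 6 lower (12.8%). After IR 7 were called (74.3%), 2 higher (62.3%) and 5 lower (12.0%). The 3 called higher after MI were Clock (0.59 ± 0.11), Per1 (1.01 ± 0.30) and Per2 (0.63 ± 0.15), of which Clock and Per2 lay below the shift of 0.70 of the median gene. Rescaled by TMM, the MI differences were -0.42 for Arntl, -0.0761 for Clock, 0.34 for Per1, 0.14 for Per2 and -1.46 for Dbp, near the count values. After IR the rescaled differences were 0.86 for Arntl, 0.44 for Clock and -2.38 for Dbp. The rescaling was chosen after the data were seen. As deposited, Npas2 lost its MI call without MISham replicate 3 (-0.31), Arntl gained one without MISham replicate 4 (0.34), MI replicate 3 (0.34) or IR replicate 3 (0.28), and Per1 gained an IR call without IR replicate 1 (0.67).

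Between the injured groups limma called Per3 (-0.68 ± 0.11) and Dbp (-0.82 ± 0.17) lower in MI (1.16% of all genes in either direction, 0.461% lower). Per3 lost that call without MI replicate 1 (-0.69) or 4 (-0.64), and Dbp without MI replicate 1 (-0.79), 2 (-0.85) or 4 (-0.77) or IR replicate 1 (-0.66) or 2 (-0.80). The difference of responses was called for Arntl alone at -1.15 ± 0.18, beside 0.126% of all genes and 0.0279% in this direction. That call was lost without MISham replicate 2 (-1.14) or 4 (-1.09), MI replicate 1 (-1.19), 2 (-1.12) or 4 (-1.20), IRSham replicate 1 (-1.16), 2 (-1.08) or 3 (-1.16), or IR replicate 4 (-1.10), and Dbp was called without IR replicate 1 (1.16).

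**Figure D4:**
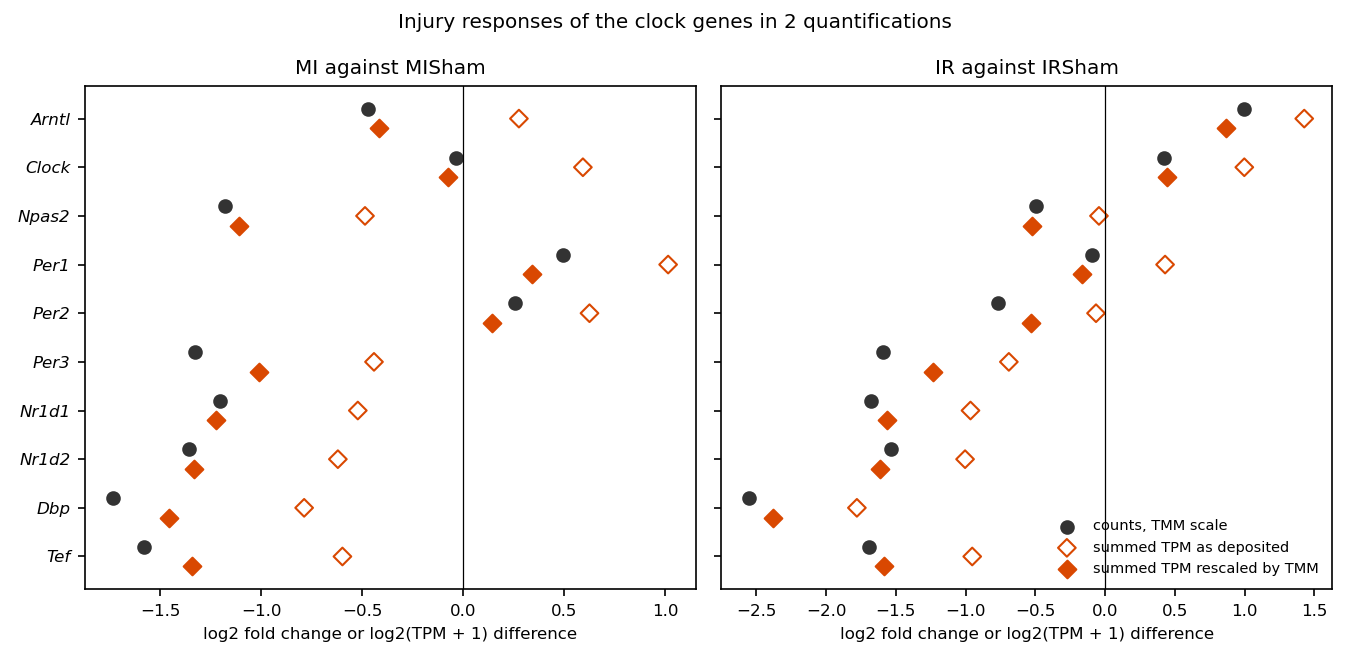
Injury responses of the 10 genes from counts on the TMM scale (black circles, log2 fold change), summed TPM as deposited (open diamonds, log2(TPM + 1) difference) and summed TPM rescaled by TMM (filled diamonds), for MI (left) and IR (right). The deposited TPM values lie to the right of the others, and Arntl after MI is at -0.47, 0.28 and -0.42.

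At the transcript level, 49 annotated transcripts were listed for the members, 28 of them with a mean share of at least 5% of their gene's TPM, and for 10 the group means were at least 10 percentage points apart. The retained-intron transcript Dbp-202 held 0.791 ± 1.33% (SD, n = 4) of Dbp TPM in IRSham and 16.4 ± 5.45% in IR, and 7.94 ± 9.99% in MISham and 28.6 ± 8.79% in MI. Its range was 0 to 2.77% in IRSham against 8.27% to 19.97% in IR, which do not overlap, while MISham reached 22.3% and MI began at 18.8%. The protein-coding Dbp-201 held 76.4 ± 1.76% in IRSham and 68.5 ± 3.09% in IR, and 68.5 ± 6.40% in MISham and 57.7 ± 10.1% in MI. The mean in IR was thus that of MISham. Dbp shares 539 of its 2993 exonic bases with Sphk2 on the other strand, 232 of the 815 bases of Dbp-202 among them, and the labels do not say whether counting used strand, so reads of the 2 genes in these bases cannot be told apart. Sphk2 itself was not called in any contrast (log2 fold changes from -0.16 to 0.12, adjusted p from 0.144 to 0.736 by edgeR).

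The long protein-coding transcript Per3-201 held 78.2 ± 5.51% of Per3 TPM in IRSham and 62.5 ± 10.2% in IR, and 74.9 ± 9.57% in MISham and 64.6 ± 8.02% in MI. The noncoding Per3-204 held 9.20 ± 6.64%, 23.8 ± 12.2%, 12.8 ± 8.68% and 24.7 ± 8.74% in the same order. Shares of Per1-201 spread within groups by SDs of 12.1 to 31.2 percentage points, so no difference is read from them. None of the shares was tested. Nr1d1 shares 263 of 3077 exonic bases with Thra on the other strand, and Thra fell after MI (-1.24 ± 0.11, edgeR adjusted p = 5.74e-08) and after IR (-0.84 ± 0.11, adjusted p = 6.39e-06) but was at 0.05 ± 0.11 between the shams (adjusted p = 0.897).

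The genes whose pattern over the 16 libraries was nearest to that of Arntl and of Dbp were found by the root mean square difference of log2 CPM, each gene centred on its own mean, among 14348 other genes. For Arntl, whose own root mean square was 0.46, they were Nostrin (0.31), Magt1 (0.31), Megf11 (0.33), Scx (0.33) and Ror1 (0.34), and its nearest fellow member was Clock (0.31). For Dbp, with 1.35 of its own, they were Tbx3os1 (0.55), Mpc1 (0.56), Atp5g1 (0.59), 2310015D24Rik (0.60) and Tcap (0.61). The members Per3 (0.51) and Tef (0.57) were as near to Dbp as these, and Nr1d2 (0.63) and Nr1d1 (0.74) followed. These distances describe 16 libraries that share the group differences in tissue and depth.

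A list of 18 other genes of the same loops, all measured, was counted next. After MI 9 fell and 6 rose, beside 30.2% of all genes lower and 34.8% higher. Hlf, the third PAR bZIP factor, fell from 27.8 ± 4.16 to 4.28 ± 0.872 CPM (SD, n = 4), a log2 fold change of -2.70 ± 0.30 (SE; edgeR adjusted p = 1.17e-06). Rorb, a ROR receptor, fell by 1.41 ± 0.49 (edgeR adjusted p = 0.0175). Its levels were low, at 0.512 to 1.63 CPM in MISham and 0.238 to 0.545 in MI, and these ranges overlap. Bhlhe40, a repressor of E-box genes also known as DEC1, rose from 41.0 ± 8.79 to 109 ± 8.12 CPM, by 1.42 ± 0.14 (adjusted p = 2.81e-07). The median of the 18 was -0.26.

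After IR 7 of the 18 fell and 5 rose, beside 28.2% of all genes lower and 29.5% higher. Hlf was again the largest, at -2.13 ± 0.30 (edgeR adjusted p = 1.76e-05). Cry2, a cryptochrome that represses CLOCK and BMAL1 together with PER, fell by 1.09 ± 0.09 (adjusted p = 5.61e-08). Ciart, a repressor known as CHRONO, fell by 0.98 ± 0.23 (adjusted p = 0.00151). The median of the list was -0.06.

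Between the shams 3 of the 18 passed, against 3.20% of all genes. Cry1, the other cryptochrome, was higher in MISham by 0.50 ± 0.10 (edgeR adjusted p = 0.00623), and Nfil3, a repressor that binds the same D-boxes as DBP, by 0.71 ± 0.13 (adjusted p = 0.00158). Bhlhe40 was lower in MISham, at -0.67 ± 0.14 (adjusted p = 0.0113). Hlf, the relative of Dbp and Tef, was at 30.2 ± 4.22 CPM in IRSham and 27.8 ± 4.16 in MISham and did not pass. Between the injured groups Rora, a ROR receptor that activates Arntl, was lower in MI (-0.53 ± 0.11, edgeR adjusted p = 0.00678). Rora was the 1 gene of the 18 that passed, beside 6.97% of all genes in either direction and 2.20% lower. For the difference of responses edgeR called 0 of 18 (5 at an unadjusted p under 0.05, and 3 by DESeq2), where it called 0.192% of all genes.

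**Figure D5:**
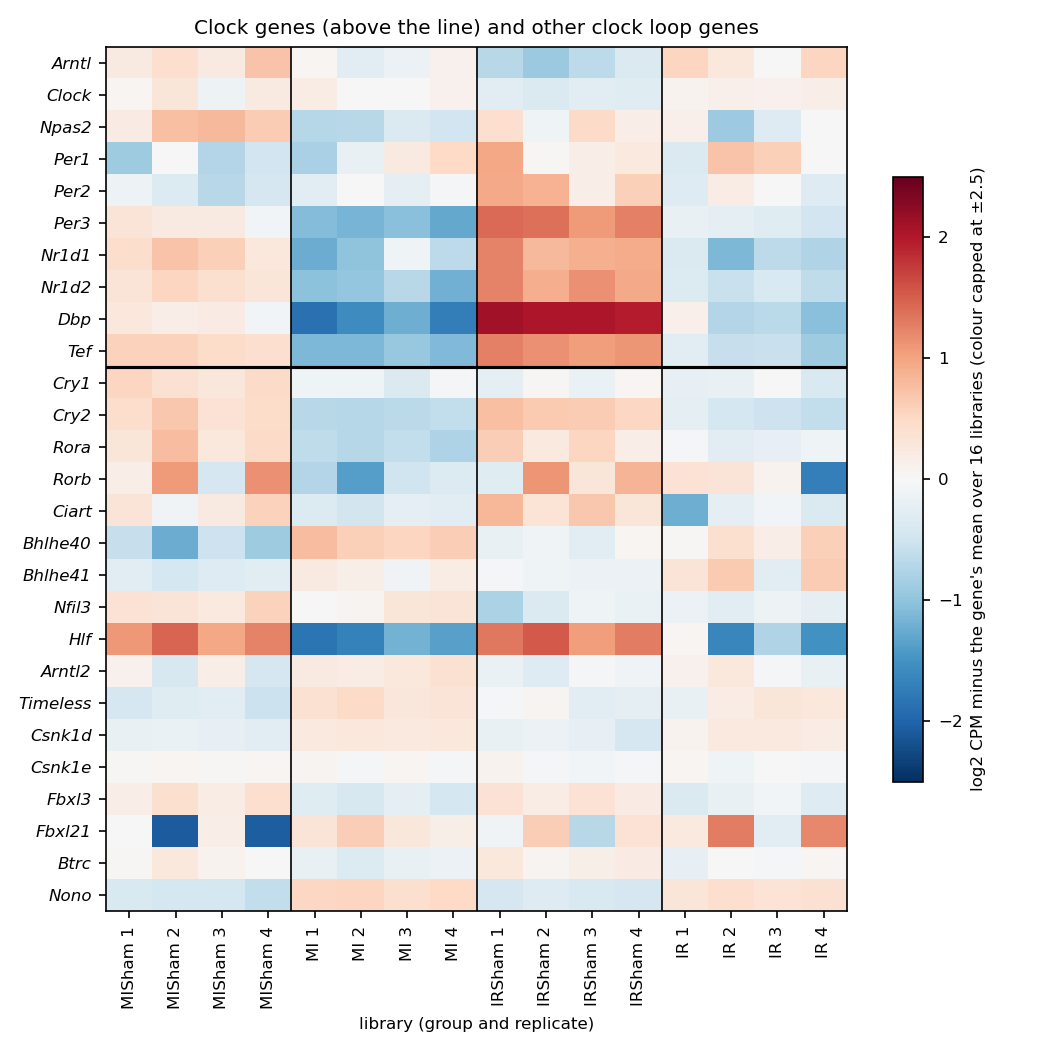
Log2 CPM of the 10 clock genes (above the line) and of other clock loop genes in each of the 16 libraries, each gene centred on its own mean (colour: log2 difference, capped at 2.5 either way). Dbp is highest in the 4 IRSham libraries and lowest in the MI libraries, Arntl is lowest in IRSham, and Hlf is high in both shams.

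Genes known as clock outputs in heart or other tissue were counted from a list of 16. After MI 10 fell and 4 rose, and after IR the counts were also 10 and 4, beside all-gene shares of 30.2% lower and 34.8% higher after MI and 28.2% and 29.5% after IR. Klf15, a regulator of cardiac metabolism, fell from 64.2 ± 13.1 to 7.63 ± 3.14 CPM after MI, by 3.07 ± 0.39 on the log2 scale (edgeR adjusted p = 9.08e-06), and by 2.23 ± 0.38 after IR (adjusted p = 0.000192). Dgat2, an enzyme of triglyceride synthesis, fell by 2.97 ± 0.31 after MI (adjusted p = 9.84e-07) and by 2.63 ± 0.31 after IR (adjusted p = 4.52e-06). Pdk4, an inhibitor of glucose oxidation, fell by 2.97 ± 0.47 (adjusted p = 6.89e-05) and 2.18 ± 0.46 (adjusted p = 0.000935). Kcnh2, a repolarizing potassium channel, fell by 1.76 ± 0.25 after MI (adjusted p = 1.84e-05), and Lonrf3, a RING finger protein, rose by 2.04 ± 0.24 after IR (adjusted p = 1.55e-06). Between the shams 2 of the 16 passed, Tspan4, a tetraspanin (-0.56 ± 0.12, adjusted p = 0.0106), and Wee1, a cell cycle kinase (-0.47 ± 0.11, adjusted p = 0.0202), both lower in MISham, where 0.866% of all genes were called lower. The median of the list was -1.04 after MI, -0.91 after IR and 0.02 between the shams. Between the injured groups edgeR called 0 of the 16 (2 at an unadjusted p under 0.05, 0 by DESeq2), where it called 6.97% of all genes.

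Because Per1 and other clock genes respond to glucocorticoids and to temperature, 2 further lists were counted. Of 12 glucocorticoid-responsive genes edgeR called 0 between the shams (2 at an unadjusted p under 0.05, 0 by DESeq2), where 3.20% of all genes were called. Their median log2 fold change was -0.10. After MI 4 rose and 3 fell, and after IR 4 rose and 3 fell, so 7 of 12 were called in each arm, where 64.9% of all genes were called after MI and 57.7% after IR. Among them was Zbtb16, a zinc finger repressor (-2.33 ± 0.48 after MI, edgeR adjusted p = 0.000713; -2.04 ± 0.48 after IR, adjusted p = 0.00222). Klf9, a Krüppel-like factor, fell by 1.89 ± 0.20 after MI (adjusted p = 7.84e-07) and by 1.59 ± 0.20 after IR (adjusted p = 6.77e-06). Cdkn1a, the cell cycle inhibitor p21, rose by 1.52 ± 0.12 (adjusted p = 1.13e-08) and 1.26 ± 0.12 (adjusted p = 1.57e-07). Tsc22d3, known as GILZ, was lower in MI than in IR (-0.68 ± 0.13, adjusted p = 0.00305).

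Of 12 temperature-linked genes 2 passed between the shams, where 3.20% of all genes did: Hsph1, a heat shock protein, was higher in MISham (0.62 ± 0.15, edgeR adjusted p = 0.0357) and Rbm3, a cold-induced RNA-binding protein, was lower (-0.53 ± 0.14, adjusted p = 0.047). Cirbp, the other cold-induced RNA-binding protein of the list, was at 67.1 ± 8.51 CPM in MISham and 70.5 ± 10.7 in IRSham. After MI 6 rose and 3 fell, beside 34.8% and 30.2% of all genes, and after IR 6 rose and 4 fell, beside 29.5% and 28.2%. Hspa1b, an inducible heat shock protein, rose by 2.10 ± 0.29 after MI (edgeR adjusted p = 8.32e-06) and 1.56 ± 0.28 after IR (adjusted p = 0.000185). Cirbp fell by 1.55 ± 0.14 (adjusted p = 5.91e-08) and 1.42 ± 0.14 (adjusted p = 3.19e-07), but Rbm3 was called higher in both arms. Rbm3 rose from 50.1 ± 6.18 to 120 ± 3.21 CPM (SD, n = 4) after MI and from 72.6 ± 7.34 to 156 ± 38.1 after IR. Between the injured groups 4 were higher in MI, beside 4.77% of all genes, with Hspb1, a small heat shock protein, at 0.78 ± 0.17 (adjusted p = 0.0108).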

How the data were processed

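Gene counts and transcript TPM were measured in 16 libraries, 4 per group. The authors deposited raw counts per gene, whole numbers without normalization, and TPM per transcript, both for all 16 libraries. Per the submitters' processing notes, the tools were featureCounts 2.0.1, HISAT2 2.2.1, kallisto 0.50.1 and SAMtools 1.7, and the build was GRCm39; no strand setting or annotation is stated. Of the deposited value columns, 2 name no sample and were not used, and the 4 long-read libraries were not analysed here. Symbols came from GENCODE M21 by Ensembl ID, which gave 52080 of 63318 genes a symbol.

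Counts were fitted in R 4.3.3 with edgeR 4.0.16: TMM scaling, filterByExpr (minimum count 10, minimum total 15), a robust quasi-likelihood fit of group means to the 16 libraries together, and Benjamini-Hochberg adjustment over 19741 genes, called under 0.05. Summed TPM adds the annotated transcripts of a gene. Genes with a mean of at least 1 TPM were tested with limma 3.58.1 on log2(TPM + 1), a scale that understates changes of low genes. DESeq2 1.42.0 was an alternative, and the code was tested on simulated data. Members and lists were chosen with earlier results of these data known. All members are named, and in each other list at most 4 called genes with the largest fold changes per comparison; lists were taken by role. An item of the other loop genes is counted but not reported here by name.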

Additional observations from a re-analysis of the deposited data

Results flagged for a closer look

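In groups of 4 libraries, a highest or lowest value far from the rest was looked for in 112 groups and found in 3, and chance alone flags about 1 in 20 such groups.

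Per1 in MISham had 1 library, replicate 2, at 8.75 summed TPM, while the other 3 lay between 4.67 and 4.89. In CPM the same library was also the highest, at 45.9. Tef in MI had 1 library, replicate 3, at 57.8 CPM against 51.3 to 52.4 in the others. The summed neutrophil markers in MI had the same library, replicate 3, at 422 CPM against 182 to 201 in the others. That library also held the most cardiomyocyte signal of the MI group (29642 CPM) and the highest Nr1d1 (27.8 CPM).

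The MI and IR responses of Arntl differed by -1.46 on the log2 scale. Every MI library was below every MISham library and every IR library above every IRSham library, and edgeR's fit called the difference. The gene was chosen with this result known, so the value is a description.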

How the results depend on the processing

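Of the member fold changes outside leave-one-out fits, 375 kept their side of the threshold, 10 became called, 4 lost the call and 1 reversed. The reversal was Clock after MI, from -0.04 to 0.28 with library size alone. Direction was compared only where the main or the other fit called the gene, so uncalled values may have changed sign. Summed TPM rescaled by TMM, chosen after the data were seen, turned Arntl after MI from 0.28 to -0.42 and Clock from 0.59 to -0.0761. For the difference of responses, called members went from 1 to 2 without the count filter, to 3 with DESeq2, to 3 without MISham replicates 1 and 3 and to 2 without IR replicates 1 and 3; other loop genes went from 0 to 3 with DESeq2 and to 2 without MISham replicates 1 and 3. Members called in TPM went from 1 to 2 without either pair. Between MI and IR, other loop genes went from 1 to 2 without the filter, with only the libraries of those groups, and without IR replicates 1 and 3, and members in TPM went from 2 to 1 without the filter and without IR replicates 1 and 3. The cause was not tested. Leaving out each library in turn, called members were 7 to 7 after MI, 8 to 9 after IR, 7 to 7 between the shams, 4 to 5 between MI and IR and 1 to 2 for the difference. Other loop genes were 12 to 16, 10 to 12, 3 to 3, 1 to 2 and 0 to 1 in the same order, members in TPM 8 to 10, 7 to 8, 2 to 5, 0 to 3 and 0 to 2, and transcripts with shares 10 points apart 10 to 11. Over all genes, calls between the shams went from 632 to 1674 without MISham replicates 1 and 3, and calls for the difference from 38 to 450 with DESeq2, 117 without the filter, 10 with the replicate block, 129 without IR replicates 1 and 3 and 1096 without MISham replicates 1 and 3. Replicate numbers did not pair the libraries: correlations of same-numbered deviations ran from -0.151 to 0.230. With the replicate block, members called were 7 after MI, 9 after IR, 7 between the shams, 5 between MI and IR, where Arntl was added at -0.40, and 1 for the difference, and 10, 7, 5, 2 and 1 in TPM. Precision is limited by 4 libraries a group, and for Npas2, Per2 and Dbp by counts down to 170, 216 and 217.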
